A study of Mus musculus with 8 samples.

Results

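The keratin gene family was taken as every gene symbol that begins with Krt followed by a digit, which left out the keratin-associated proteins and Krtdap. The rule found 52 symbols among the 24421 symbols counted, 28 of type I and 24 of type II. Bulk RNA sequencing of skin keratinocytes was available for 4 knockout and 4 control libraries of CBA x C57Bl/6J mice. The knockout group had the genotype InvEE K5 Cre+ HMGB1 fl/fl and the control group InvEE K5 Cre- HMGB1 fl/fl. Both groups therefore carried the InvEE transgene, an activated MEK1 under the involucrin promoter that acts in suprabasal keratinocytes, and both carried the floxed Hmgb1 alleles. K5 Cre is driven by a keratin 5 promoter and recombines in basal keratinocytes, so deletion reaches these cells and their descendants. Only the knockouts carried Cre, and an effect of Cre cannot be told apart from that of Hmgb1 loss. Age and sex were not stated in the labels, nor was it stated that replicates came from different animals. The p-values below therefore reflect library-to-library scatter, some of which may be technical.

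Keratins form the intermediate filaments of epithelial cells. An acidic type I keratin pairs with a basic type II keratin, and the pair used depends on the layer. Basal cells of the epidermis make Krt5 with Krt14, and cells that leave the basal layer switch to Krt1 with Krt10. Injured or hyperproliferative epidermis makes Krt6a, Krt6b, Krt16 and Krt17, simple epithelia make Krt8 with Krt18, and the hair shaft and its root sheaths have sets of their own. In the mouse the type I genes lie together on chromosome 11 and the type II genes on chromosome 15, with the type I gene Krt18 beside Krt8. Of the 52 symbols, 27 were placed on chromosome 11 within 1037 kb (99232761 to 100269951) and 24 on chromosome 15 within 684 kb (101348315 to 102032026), in RefSeq on GRCm38.p6, the assembly of mm10. Krt85 was not matched by symbol.

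The DNA just before the transcription start is shown for keratins that went different ways in the knockout. Lines give the 60 bases before an annotated transcript start on GRCm38.p6, read on the minus strand of the chromosome, 5′ to 3′. The RefSeq genes of Krt10, Krt78 and Krt2 begin further upstream, at 99397449, 101996624 and 101818956, so their lines lie inside those genes. Capitals mark TATAAA or, where that was absent, ATAA, beginning 20 to 40 bases before the start. Lines without capitals had neither motif in that window.
Krt10 (chr11:99389365-99389424): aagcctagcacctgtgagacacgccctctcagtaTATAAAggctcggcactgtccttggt
Krt23 (chr11:99493121-99493180): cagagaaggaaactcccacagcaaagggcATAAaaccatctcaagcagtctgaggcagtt
Krt78 (chr15:101954288-101954347): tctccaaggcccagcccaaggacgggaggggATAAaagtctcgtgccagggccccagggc
Krt77 (chr15:101869706-101869765): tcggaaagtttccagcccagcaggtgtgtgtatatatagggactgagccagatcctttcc
Krt2 (chr15:101818170-101818229): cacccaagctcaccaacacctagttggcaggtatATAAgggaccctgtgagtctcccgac
Krt5 (chr15:101712906-101712965): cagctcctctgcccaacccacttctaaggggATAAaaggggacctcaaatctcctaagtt
Krt79 (chr15:101940325-101940384): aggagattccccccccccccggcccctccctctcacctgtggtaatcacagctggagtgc

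A TATA element was more frequent in keratin promoters than among all promoters. A usable promoter was found for 30 of the 52 symbols, being one whose start lay within 50 bases of a GENCODE start. That check of the start was made for keratins only, and the 32851 promoters set beside them were counted without it. TATAAA began 20 to 40 bases before the start, read on the gene's strand, in 12 of the 30 (40%), against 1.99% of all 32851 promoters in the table. The shorter ATAA, added after the sequences had been seen and contained in every TATAAA, was in that window in 23 of the 30 (76.67%), against 8.08% of all promoters. TATAAA itself was in that window in Krt10 alone among the 7 printed, while Krt23, Krt78, Krt2 and Krt5 had only ATAA. In the 250 bases before the start, the AP-1 motif TGANTCA, read on both strands, was in 1 of the 30 keratin promoters (3.33%) and 6.75% of all promoters. The AP-2 motif GCCNNNGGC, read on both strands, was in 3 (10%) and 13.73%. A match describes these letters only, and says nothing of whether a factor binds.

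Depth, the deleted gene and other cell types were checked first. Libraries held 30506676 to 34229030 counts on genes, and levels below are CPM, counts put on a common library size with TMM factors, unless another unit is named. Hmgb1 in the knockouts was at 19.97% ± 0.993 of the control mean (SD, n = 4), with a log2 fold change of -2.32 (SE 0.09, adjusted p = 3.576e-07). Of 7 keratinocyte markers, all were tested and 2, Cdh1 and Perp, rose (4.33% of all tested genes rose), with summed levels of 11875 to 15057 CPM in knockouts and 10333 to 10932 CPM in controls. Summed hair matrix and inner root sheath markers were at 15.1 to 19.6 CPM in knockouts and 20.1 to 25.5 CPM in controls, with 0 of 3 tested members called. Summed Merkel cell markers stayed at or below 0.394 CPM in knockouts and 0.496 CPM in controls, and Atoh1, Sox2 and Isl1 were each at 0 in at least 4 libraries. For Isl1 these were the knockouts, and it was at 0.117 to 0.167 CPM in controls. Of the 5 Merkel cell markers, 0 were tested. Fibroblast markers summed to 3.41 to 23.98 CPM in knockouts and 5.97 to 12.03 CPM in controls, and 1 of 4 tested, Dcn, rose. Y-linked transcripts were found in knockout replicate 1 and control replicates 2 and 3, so sex was not balanced between the groups.

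Keratin transcripts made up 6.17 to 6.61% of the gene counts in knockout libraries, with a mean of 6.33% ± 0.198, and 5.42 to 6.36% in control libraries, with a mean of 6.02% ± 0.429 (SD, n = 4 each). The ranges overlapped. The make-up of that total differed between the groups. Of all keratin counts, basal keratins (Krt5, Krt14 and Krt15) were 69.7, 61.4, 70.6 and 67.0% in knockout replicates 1 to 4, against 77.9, 78.3, 77.5 and 71.7% in control replicates 1 to 4. Suprabasal keratins took 23.4, 31.8, 23.8 and 28.2% of keratin counts in knockouts, against 17.3, 16.8, 16.6 and 23.3% in controls. Neither share overlapped between the groups, though control replicate 4, at 23.3% suprabasal, lay next to knockout replicate 1. Stress keratins took 3.92 to 5.72% in knockouts and 3.48 to 4.94% in controls, ranges that overlapped. Shares of keratin counts sum to a fixed total, so a higher suprabasal share lowers the basal one. As a share of all gene counts the groups overlapped in both: basal keratins took 3.79 to 4.67% in knockouts and 4.22 to 4.93% in controls, and suprabasal keratins 1.46 to 1.96% in knockouts and 0.940 to 1.47% in controls. These shares are descriptions without a test. In a bulk library fewer cells of a type and less RNA per cell cannot be told apart, so a share of counts is not a share of cells.

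**Figure D1:**
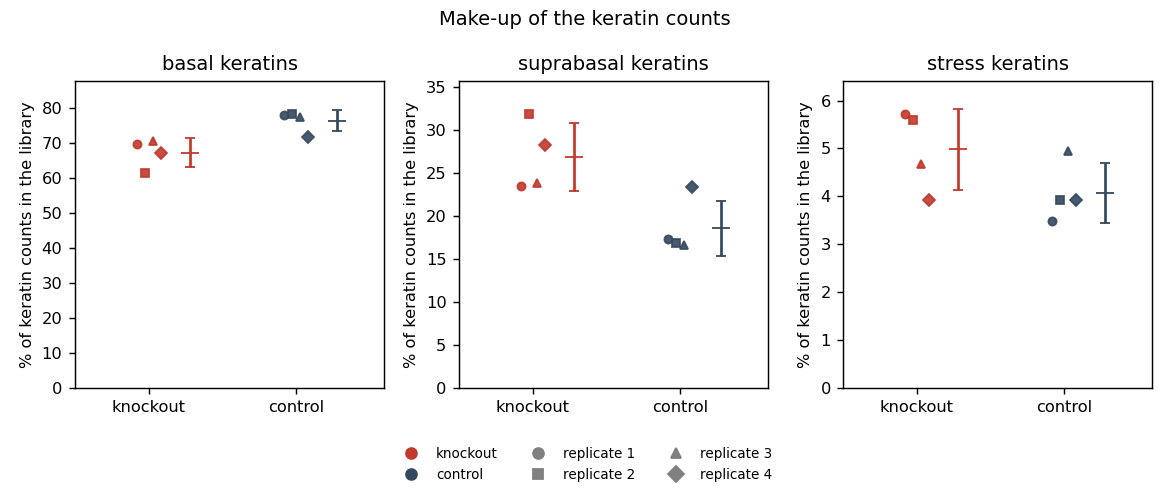
Share of each library's keratin counts (vertical axis, %) held by basal, suprabasal and stress keratins in 4 knockout and 4 control libraries, with one point per library and bars for the mean ± SD. Basal shares were 61.4 to 70.6% in knockouts and 71.7 to 78.3% in controls, and suprabasal shares were 23.4 to 31.8% in knockouts and 16.6 to 23.3% in controls.

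Of the 52 keratins, 24 passed the filter on low counts and were tested, and 5 of them rose and 1 fell in the knockout at an adjusted p under 0.05. Among all 13016 tested genes, 4.33% rose and 4.54% fell, 8.87% in all. Krt10, Krt78, Krt16, Krt23 and Krt4 rose and Krt2 fell. The other 18 tested keratins did not pass, and 10 of the 24 had an unadjusted p under 0.05, as did 26.2% of all tested genes. The median log2 fold change of the tested keratins was 0.19, against -0.02 for all tested genes. Groups did not overlap for 6 keratins with higher values in the knockout and 1 with lower values, where 7.95% and 9% of all tested genes did the same. By type, 3 of 12 tested type I keratins rose and 0 fell, and 2 of 12 tested type II keratins rose and 1 fell. Because the filter keeps a gene that is high in either group alone, the tested members are not a fair sample of the family. Among the called keratins, Krt2 would not have passed on its knockout values alone. In the 5 libraries without Y-linked transcripts, 2 of them control, 0 of 29 tested keratins were called, with 8 higher and 3 lower at an unadjusted p under 0.05. With a term for those transcripts in the full set, 5 rose and 1 fell.

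**Figure D2:**
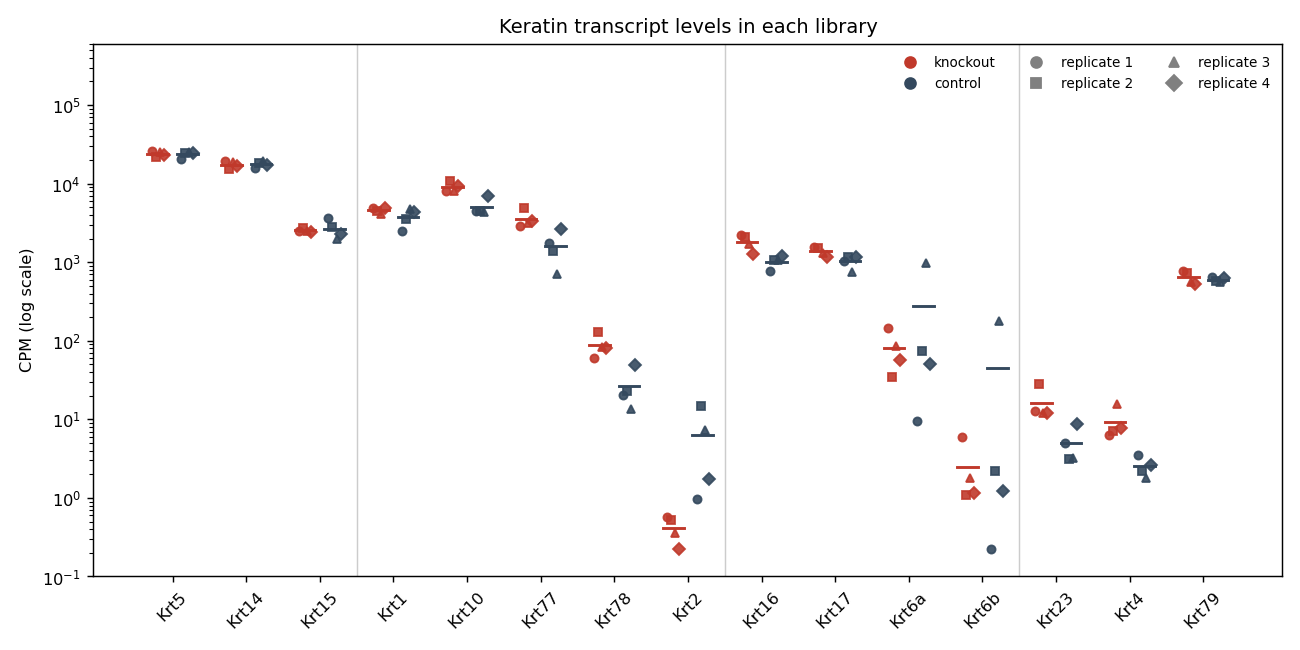
CPM on a log scale (vertical axis) of 15 keratins in each of 4 knockout and 4 control libraries, with one point per library and a line at each group's mean. Krt10, Krt77, Krt78, Krt16, Krt23 and Krt4 lay higher in every knockout library than in any control library and Krt2 lower, while Krt5, Krt14 and Krt15 overlapped and control replicate 3 stood far above the rest in Krt6a and Krt6b.

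The basal keratins Krt5 and Krt14 were the most abundant of the family, and none of the 3 basal keratins passed the test. Per kb of the longest coding transcript, Krt5 ranked first at 11017 ± 903 CPM per kb in knockouts and 10826 ± 933 in controls. Krt14 ranked second at 10265 ± 1070 in knockouts and 10436 ± 832 in controls (SD, n = 4 each). Within a library, the ratio of Krt14 to Krt5 per kb was 0.909 to 0.954 in knockouts and 0.924 to 0.990 in controls. Krt14 therefore lay below Krt5 in every library by this measure. Krt5, the type II keratin of the basal layer, was at 26093, 21800, 25540 and 23385 CPM in knockouts, against 20768, 24531, 25354 and 24483 CPM in controls. The groups overlapped throughout, and the log2 fold change was 0.03 with a 95% interval of -0.22 to 0.27 (adjusted p = 0.908). Krt14, its type I partner, was at 19233, 15317, 18620 and 16553 CPM in knockouts, against 15882, 18295, 19213 and 17492 CPM in controls, also overlapping. Its log2 fold change was -0.02, with an interval of -0.27 to 0.23 (adjusted p = 0.916). The signs of both small values depended on scaling or on single libraries. Krt15, a basal and follicle bulge keratin that has no fixed type II partner, was at 2429 to 2726 CPM in knockouts and 1948 to 3704 CPM in controls, with a log2 fold change of -0.08 (interval -0.46 to 0.31, adjusted p = 0.819). The controls were the more scattered group.

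In the suprabasal group, 7 of 8 keratins were tested, with 2 higher, 1 lower and 4 that did not pass. Krt10, the type I keratin of the spinous layers, was the most abundant that rose. It was at 7995, 10777, 8076 and 9225 CPM in knockouts, against 4462, 4554, 4365 and 6985 CPM in controls. Every knockout library lay above every control library, and control replicate 4 was the nearest. Krt10 rose 1.77-fold (log2 0.82, SE 0.17, interval 0.45 to 1.20, adjusted p = 0.0169). The adjusted p was 0.0546 without knockout replicate 2 (log2 0.73), 0.0564 without control replicate 2 (log2 0.78) and 0.120 in the 5 libraries that lack Y-linked transcripts (log2 0.71).

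Krt1, the type II partner of Krt10, did not pass. It was at 4902, 4536, 4105 and 4841 CPM in knockouts, against 2519, 3580, 4707 and 4410 CPM in controls. Control replicates 3 and 4 lay within the knockout range. The log2 fold change was 0.27, with an interval of -0.12 to 0.66 (adjusted p = 0.357). Within a library, the ratio of Krt10 to Krt1 per kb was 1.91 to 2.79 in knockouts and 1.09 to 2.08 in controls, overlapping, and whether the 2 partners changed differently was not tested.

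Krt77 and Krt80, type II keratins of differentiating epithelia, are named after their values were seen. Krt77 was at 2875, 4855, 3203 and 3352 CPM in knockouts, against 1742, 1377, 712 and 2651 CPM in controls. The groups did not overlap, but the log2 fold change of 1.14 (SE 0.36, interval 0.33 to 1.95) missed the threshold at an adjusted p of 0.0830. It was 0.0310 without control replicate 4 and 0.0333 by DESeq2. Krt80 was at 253 to 351 CPM in knockouts and 144 to 271 CPM in controls, a log2 fold change of 0.48 (adjusted p = 0.120), and the groups overlapped.

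Krt78, a type II keratin of upper epidermal layers, was at 60.4, 129.7, 83.4 and 80.9 CPM in knockouts, against 20.4, 22.7, 13.4 and 49.3 CPM in controls. The groups did not overlap, with knockout replicate 2 the highest and control replicate 4 the highest of its group. Krt78 rose 3.34-fold (log2 1.74, SE 0.41, adjusted p = 0.0380). This call rested on the full set: of the 8 fits that left out 1 library, only that without control replicate 4 kept it, and in the other fits the adjusted p was 0.0548, 0.108, 0.0549 and 0.0710 without knockout replicates 1 to 4 and 0.0806, 0.108 and 0.0660 without control replicates 1 to 3. It was 0.0832 with no filter on low counts, 0.0552 with the replicate block and 0.227 in the 5 libraries that lack Y-linked transcripts. The log2 fold change was 1.49 to 1.89 in the fits that lost the call.

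Krt2, a type II keratin of late suprabasal cells, was the keratin that fell, and it was rare in these cells. It had 16, 16, 11 and 7 counts in knockouts, against 35, 468, 237 and 60 counts in controls, or 0.573, 0.524, 0.356 and 0.221 CPM in knockouts, against 0.977, 14.9, 7.30 and 1.75 CPM in controls. All knockouts lay below all controls, and the controls differed widely among themselves. Krt2 was 14.9-fold lower (log2 -3.89, SE 0.91, interval -5.96 to -1.83, adjusted p = 0.0357). Its knockout counts alone would not have passed the filter on low counts. It was tested through the controls, where it was high, and the fold and adjusted p carry that limit. The 2 highest controls, replicates 2 and 3, were those with Y-linked transcripts, and in the 5 libraries without them the log2 fold change was -1.89 (adjusted p = 0.0627). The adjusted p was 0.0871, 0.109, 0.0682 and 0.0871 without knockout replicates 1 to 4, 0.0517 without control replicate 2 and 0.0750 without control replicate 3. The log2 fold change was -2.99 without control replicate 2 and -2.78 once Y-linked transcripts were a term of the fit, where the call held at 0.0241. The call was lost by limma-voom (log2 -3.15, adjusted p = 0.133) and with no filter on low counts (0.0789).

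The remaining suprabasal members were low. Krt24, a type I keratin of differentiating keratinocytes, was at 11.4 to 19.97 CPM in knockouts and 14.5 to 22.2 CPM in controls, overlapping, with a log2 fold change of -0.33 (adjusted p = 0.325). Krt9, the keratin of palms and soles, had at most 10 counts in a library and was not tested. The suprabasal keratins thus included members with higher, lower and overlapping values. The libraries also ranked alike across several of them: knockout replicate 2 was the highest of all libraries, and control replicate 4 the highest control, for each of Krt10, Krt77, Krt78 and Krt80.

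**Figure D3:**
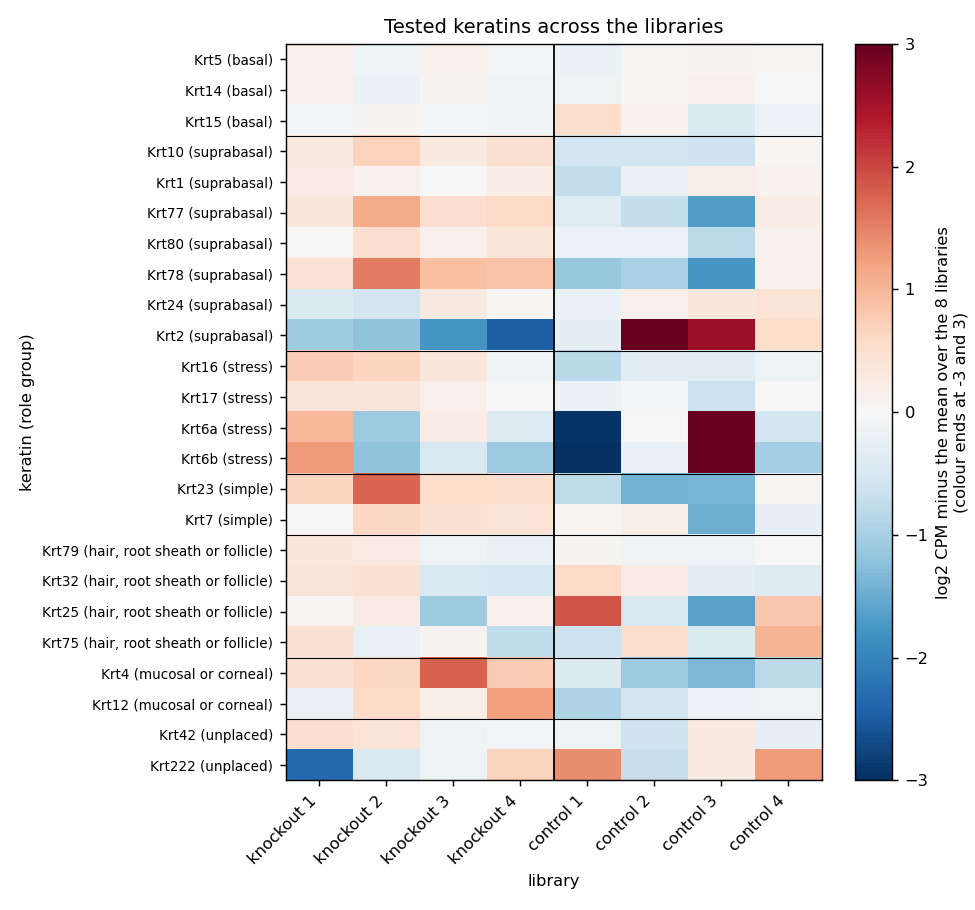
Log2 CPM of the 24 tested keratins minus each keratin's mean over the 8 libraries (colour, ending at -3 and 3), with keratins grouped by role down the page and the 4 knockout libraries left of the 4 control libraries. Krt10, Krt77 and Krt78 are redder in knockouts, Krt2 is bluer in knockouts, and Krt6a and Krt6b are darkest red in control replicate 3.

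Of the 4 stress keratins, all tested, 1 rose and none fell. Krt16, a type I keratin of injured and hyperproliferative epidermis, was at 2234, 2090, 1698 and 1261 CPM in knockouts, against 766, 1058, 1056 and 1198 CPM in controls. The groups did not overlap, and the closest values were knockout replicate 4 and control replicate 4. Krt16 rose 1.79-fold (log2 0.84, SE 0.19, interval 0.42 to 1.26, adjusted p = 0.0251). The adjusted p was 0.0622 and 0.0765 without knockout replicates 1 and 2, and 0.0624 without control replicate 2. It was 0.0812 with the replicate block and 0.182 in the 5 libraries that lack Y-linked transcripts. Log2 fold changes of Krt16 were 0.73 to 0.86 in these fits. Of the 50-base stretches of its longest coding transcript, 37.6% also occurred in another gene, mostly Gm11597, so its counts carry some uncertainty.

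Krt17, a type I keratin of stressed epidermis and of follicles, was at 1543, 1510, 1303 and 1161 CPM in knockouts, against 1028, 1151, 752 and 1174 CPM in controls. Control replicate 4 lay above knockout replicate 4, and the rest did not overlap. The log2 fold change was 0.43, with an interval of 0.09 to 0.76 and an adjusted p of 0.106, and it passed by DESeq2 at 0.0462.

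Krt6a and Krt6b, the type II partners of Krt16 and Krt17, turned on 1 library. Krt6a was at 146, 34.9, 86.7 and 56.5 CPM in knockouts, against 9.63, 73.8, 979 and 50.6 CPM in controls. Krt6b was at 5.98, 1.08, 1.78 and 1.17 CPM in knockouts, against 0.223, 2.17, 177 and 1.23 CPM in controls. Control replicate 3 stood above every other library in both genes, and the groups otherwise overlapped. The log2 fold changes were -1.78 (SE 1.40, adjusted p = 0.474) for Krt6a and -4.18 (SE 2.16, adjusted p = 0.283) for Krt6b. Without control replicate 3 they were 0.86 (adjusted p = 0.578) and 1.05 (adjusted p = 0.511). The transcripts share sequence, and 43.6% of the 50-base stretches of Krt6a are found in Krt6b. Their summed counts gave 36.0 to 152 CPM in knockouts and 9.85 to 1156 CPM in controls, a log2 fold change of -1.95 (SE 1.45, adjusted p = 0.447). In the same control library Krt16 and Krt17, at 1056 and 752 CPM, did not stand above the other controls.

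**Figure D4:**
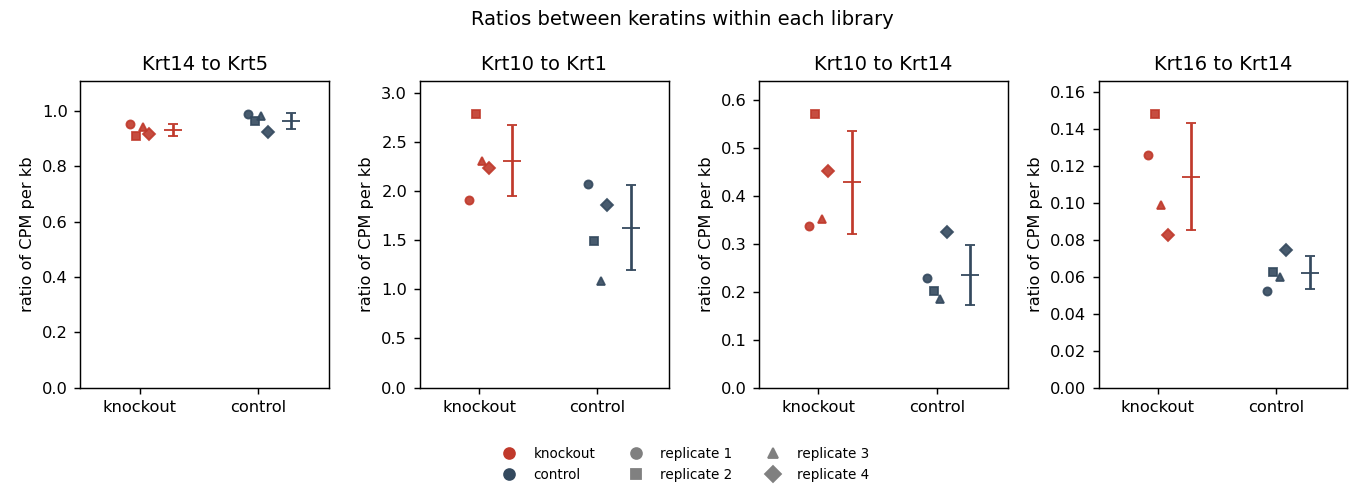
Ratios of CPM per kb between keratins of the same library (vertical axes) in 4 knockout and 4 control libraries, with one point per library and bars for the mean ± SD. Krt14 to Krt5 overlapped between the groups, as did Krt10 to Krt1, while Krt10 to Krt14 and Krt16 to Krt14 were higher in every knockout than in any control.

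Ratios within a library do not depend on scaling between libraries. Krt14 to Krt5 per kb, the basal pair, was 0.909 to 0.954 in knockouts and 0.924 to 0.990 in controls, overlapping. Krt10 to Krt14 was 0.337, 0.571, 0.352 and 0.452 in knockouts, against 0.228, 0.202, 0.184 and 0.324 in controls, so the suprabasal keratin was higher against the basal one in every knockout. Krt16 to Krt14 was 0.126, 0.148, 0.0990 and 0.0827 in knockouts, against 0.0523, 0.0627, 0.0596 and 0.0743 in controls, also without overlap. Krt16 to Krt6a ranged from 22.2 to 87.2 in knockouts and from 1.57 to 116 in controls, the lowest being control replicate 3. Summed type I over summed type II keratins, per kb, was 1.21 to 1.30 in knockouts and 1.08 to 1.29 in controls.

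Of the 6 simple epithelial keratins, 2 were tested and 1 rose. Krt23, a type I keratin placed with this group, was at 12.95, 28.1, 12.2 and 12.02 CPM in knockouts, against 4.94, 3.13, 3.23 and 8.61 CPM in controls. The groups did not overlap, knockout replicate 2 stood well above the other knockouts and control replicate 4 was the nearest control. Krt23 rose 3.27-fold (log2 1.71, SE 0.40, adjusted p = 0.0344). The adjusted p was 0.0609 and 0.0655 without knockout replicates 1 and 2, and 0.0745, 0.0855 and 0.0769 without control replicates 1 to 3. It was 0.0635 with no filter on low counts, 0.0791 with the replicate block and 0.272 in the 5 libraries that lack Y-linked transcripts. Log2 fold changes were 1.31 to 1.81 in these fits.

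Krt7, a type II keratin of glands and ducts, was at 1.68 to 2.62 CPM in knockouts and 0.616 to 1.95 CPM in controls, overlapping, with a log2 fold change of 0.63 (adjusted p = 0.246). Krt8, Krt18 and Krt19, which mark simple epithelia and Merkel cells, had 2 to 28, 8 to 32 and 1 to 24 counts in knockout libraries and 3 to 12, 5 to 9 and 1 to 7 counts in control libraries. None of these 3 was tested. All 3 were highest in knockout replicate 3. Krt20, a gut and Merkel cell keratin, had 3 counts in 1 library, control replicate 4, and 0 in the others.

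The hair, root sheath and follicle keratins were the largest group by number, with 25 symbols, but only 4 were tested and none passed. At an unadjusted p under 0.05 there were also 0, and DESeq2 and limma-voom called none of these 4. Krt79, which marks the upper follicle and sebaceous duct, was by far the most abundant of them. It was at 768, 732, 561 and 528 CPM in knockouts, against 657, 571, 556 and 622 CPM in controls. The groups overlapped and the log2 fold change was 0.11, with an interval of -0.19 to 0.40 (adjusted p = 0.659). The sign turned with library totals only and in the 5 libraries that lack Y-linked transcripts.

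The other 3 tested follicle keratins were near 1 to 5 CPM. Krt32, a hair cuticle keratin, was at 2.59 to 5.14 CPM in knockouts and 2.83 to 5.55 CPM in controls. Krt25, of the inner root sheath, was at 0.485 to 1.21 CPM in knockouts and 0.339 to 3.77 CPM in controls. Krt75, of the companion layer, was at 0.536 to 1.25 CPM in knockouts and 0.586 to 1.84 CPM in controls. Their log2 fold changes were -0.05, -0.77 and -0.32, and all 3 overlapped. The 21 follicle keratins that were not tested had at most 70 counts in a library, which was Krt71 in control replicate 1, and Krt40, Krt72 and Krt82 had 0 in every library. Control replicate 1 also had the most counts of Krt25, Krt27, Krt28 and Krt73, keratins of the inner root sheath. Krt26 and Krt74, also of that sheath, were highest elsewhere. Krt26 had 8 counts in control replicate 1 and 11 in each of knockout replicates 3 and 4. Krt74 had 10 counts in control replicate 1 and 11 in control replicate 4.

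Among these 21 untested genes a pair did not overlap between the groups, named after their values were seen. Of all tested genes, 7.95% lay higher in the knockout without overlap and 9% lower. No such share was computed for untested genes. Krt36 had 4, 2, 2 and 2 counts in knockouts, against 0 in each control, and Krt74 had 5, 3, 5 and 5 counts in knockouts, against 10, 8, 8 and 11 counts in controls. Counts this low leave no fold worth giving for Krt36, since both groups are near the limit of 3 counts that a count of 0 allows.

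Of the mucosal and corneal keratins, 2 of 4 were tested and 1 rose. Krt4, the type II keratin of the suprabasal cells of the oesophagus and mouth, was at 6.37, 7.04, 15.7 and 7.83 CPM in knockouts, against 3.49, 2.20, 1.82 and 2.66 CPM in controls. The groups did not overlap, and knockout replicate 3 was the highest. Krt4 rose 3.62-fold (log2 1.86, SE 0.32, interval 1.15 to 2.57, adjusted p = 0.00887), and it was called in all 8 fits that left out 1 library, with adjusted p of 0.00823 to 0.0328. It was not called in the 5 libraries that lack Y-linked transcripts, at 0.0633 (log2 1.73). Krt13, its type I partner in mucosa, had only 1 to 6 counts in knockouts and 1 to 7 counts in controls. Krt76, of the palate, had at most 3 counts in a library. Krt12, the type I keratin of the cornea, named after its values were seen, was at 0.358 to 0.978 CPM in knockouts and 0.223 to 0.380 CPM in controls (log2 fold change 0.96, adjusted p = 0.134). Its control counts alone, 8, 9, 12 and 13, would not have passed the filter on low counts. Krt12 was tested through the knockouts, where it was higher, and the fold change and adjusted p carry that limit. Of its 50-base stretches, 42.0% lie in the antisense gene A830036E02Rik, and without strand use stated the reads of the 2 cannot be told apart.

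A pair of type I symbols had no role group. Krt42 was at 0.549 to 0.823 CPM in knockouts and 0.383 to 0.708 CPM in controls (log2 fold change 0.36, adjusted p = 0.477). Krt222 was at 0.0716 to 0.568 CPM in knockouts and 0.224 to 0.949 CPM in controls (log2 fold change -1.002, adjusted p = 0.290). Both overlapped between the groups.

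**Figure D5:**
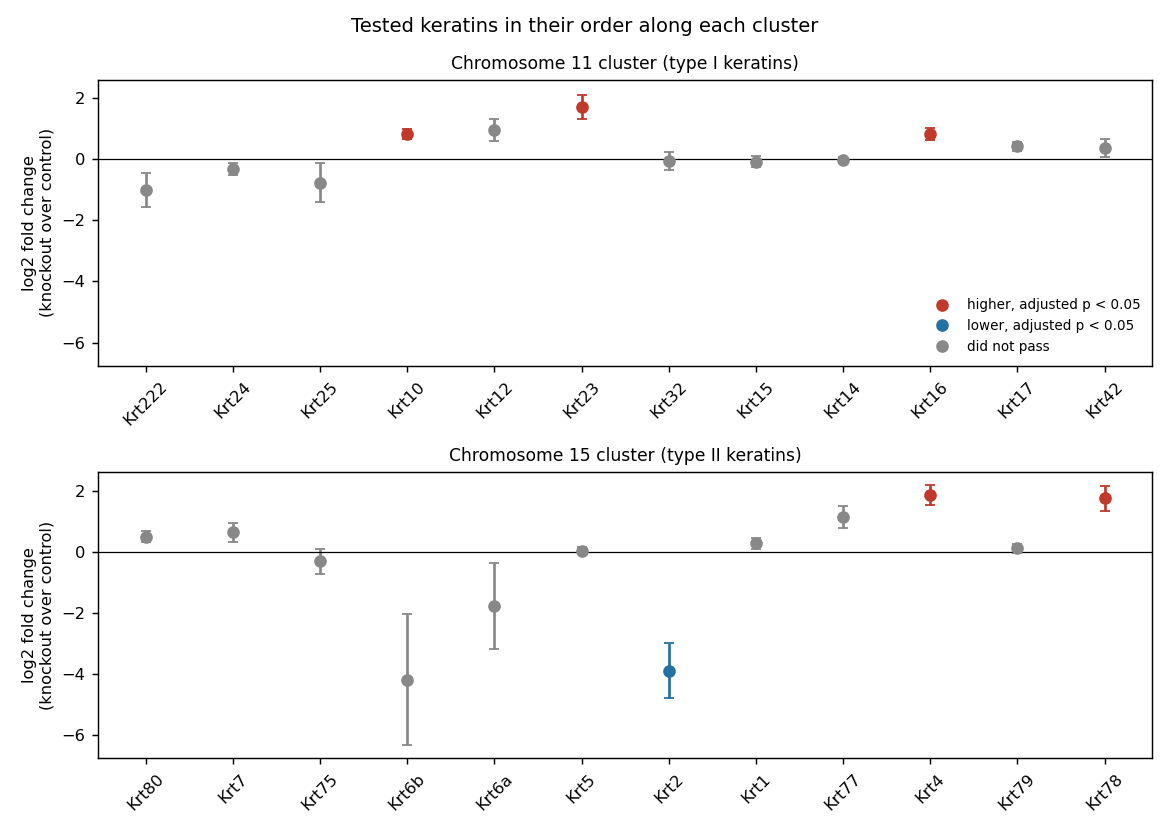
Log2 fold change, knockout over control, with its standard error (vertical axes) for the 24 tested keratins, in gene order along the chromosome 11 cluster (top) and the chromosome 15 cluster (bottom), coloured by whether the adjusted p passed the threshold. Called keratins stood among neighbours that did not pass, such as Krt10 beside Krt25 and Krt12, and Krt2 between Krt5 and Krt1.

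Along the clusters, called keratins did not lie in one block. On chromosome 11, Krt16, which rose, lay between Krt14 and Krt17, which did not pass. On chromosome 15, Krt2, which fell, lay between Krt5 and Krt1, and Krt4 and Krt78, which rose, lay on either side of Krt79, which did not pass. Krt10 lay between Krt25 and Krt12 among tested genes.

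Transcripts of proteins that bind, anchor or cross-link keratin filaments rose in 2 cases and fell in none. Of 20 on a list drawn up with earlier results of these data known, 19 were among the symbols and 18 were tested. The background was again 4.33% higher, and the median log2 fold change of the list was 0.29, against -0.02 for all tested genes. Of the 18, 6 lay higher in the knockout without overlap and 0 lower, where 7.95% and 9% of all tested genes did. Jup, plakoglobin of the desmosome, was at 2400 to 2937 CPM in knockouts and 1577 to 2004 CPM in controls, without overlap. It rose 1.56-fold (log2 0.64, SE 0.11, adjusted p = 0.00911) and was called in all 8 fits that left out 1 library. Evpl, envoplakin of the cornified envelope, was at 515 to 673 CPM in knockouts and 370 to 483 CPM in controls, without overlap, and rose (log2 0.44, SE 0.12, adjusted p = 0.0453). Its call was lost in 6 of those 8 fits, where adjusted p reached 0.133. Of the other 16, 7 had an unadjusted p under 0.05, where 26.2% of all tested genes did. Neither Jup (log2 0.52, adjusted p = 0.113) nor Evpl (log2 0.42, adjusted p = 0.255) was called in the 5 libraries that lack Y-linked transcripts.

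Of 16 transcription factors known to act on keratin genes, all tested, 2 rose and 1 fell, where 4.33% of all tested genes rose and 4.54% fell. The median log2 fold change of this list was -0.02, the same as for all tested genes. Gata3, a factor of hair follicle and epidermal differentiation, was at 399 to 619 CPM in knockouts and 175 to 340 CPM in controls and rose (log2 0.91, SE 0.23, adjusted p = 0.0388). Sp1, a general activator, was at 268 to 339 CPM in knockouts and 227 to 262 CPM in controls and rose (log2 0.35, SE 0.10, adjusted p = 0.0485). Klf4, a factor of epidermal barrier formation, was at 1073 to 1216 CPM in knockouts and 1497 to 1763 CPM in controls and fell (log2 -0.45, SE 0.10, adjusted p = 0.0211). None of the 3 overlapped between the groups. Of all 16, 3 lay higher in the knockout without overlap and 1 lower, where 7.95% and 9% of all tested genes did. Leaving out 1 library removed the call of Sp1 in 7 of 8 fits, of Gata3 in 4 and of Klf4 in 2. These were adjusted p of up to 0.133 for Sp1 and 0.109 for Gata3, and for Klf4 0.0532 without knockout replicate 2 and 0.0528 without control replicate 4. In the 5 libraries that lack Y-linked transcripts none of the 3 was called, at log2 fold changes of 0.51 for Gata3 (adjusted p = 0.193), 0.31 for Sp1 (0.265) and -0.52 for Klf4 (0.0842). Gata3 was also lost with the Y-linked term (0.0529) and with no filter (0.0541). Klf4 was lost with the replicate block (0.0684), as was Sp1 (0.0813), and Sp1 also with RLE (0.0503), library totals (0.0877), limma-voom (0.0502) and no filter (0.0557). Trp63, the master factor of the basal layer, was at 739 to 846 CPM in knockouts and 766 to 804 CPM in controls and did not pass (adjusted p = 0.864).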

How the data were processed

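Whole-number counts per gene symbol were deposited for each library, not normalized. The submitters' processing notes name TopHat2 2.1.0, SAMtools 0.1.18, Trimmomatic 0.35, FastQC 0.11.4 and mm10. Read length, counting tool, annotation and strand use are not given in the sources used here. Lines for ambiguous reads (0.918 to 1.11%) and reads outside genes (15.7 to 21.7%) were left out. edgeR 4.0.16 (R 4.3.3) tested 13016 genes kept by filterByExpr, with TMM scaling, genotype as the only term and the robust quasi-likelihood test. Benjamini-Hochberg adjustment was over all tested genes, with a threshold of 0.05. Alternatives used DESeq2 1.42.0, limma 3.58.1, other scalings and filters, and 1 library left out in turn. The steps were tested on simulated counts. Keratins were placed in role groups by known function, and coordinates came from RefSeq (51 of 52 symbols matched). Members, lists and alternatives were chosen with earlier results of these data known. The text names called keratins, the main keratins of the basal, suprabasal, stress and simple groups, and the most abundant tested ones of the other groups. It also names called partners and regulators, and says where a gene was chosen after its values were seen.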

Additional observations from a re-analysis of the deposited data

Results flagged for a closer look

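Within a group of 4 libraries, 7 values stood apart from the rest by more than Dixon's 95% critical value, among 60 groups examined, where chance flags about 1 in 20. Krt23 was at 28.1 CPM in knockout replicate 2, against 12.02 to 12.95 CPM in the other knockouts. Krt4 was at 15.7 CPM in knockout replicate 3, against 6.37 to 7.83 CPM in the other knockouts. Krt6b was at 5.98 CPM in knockout replicate 1, against 1.08 to 1.78 CPM in the other knockouts. Among controls, Krt6a was at 979 CPM in replicate 3, against 9.63 to 73.8 CPM in the others, and Krt6b was at 177 CPM in the same library, against 0.223 to 2.17 CPM. Krt10 was at 6985 CPM in control replicate 4, against 4365 to 4554 CPM in the other controls. Klf4 was at 1763 CPM in control replicate 4, against 1497 to 1541 CPM.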

How the results depend on the processing

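The count of keratins that rose, 5, was 7 by DESeq2, 3 with no filter on low counts, 2 with the replicate block, 0 in the 5 libraries without Y-linked transcripts and 1 to 6 leaving out 1 library in turn. The count that fell, 1, was 0 by limma-voom, with no filter and in the 5 libraries, and 0 to 1 leaving out 1 library. Partners that rose, 2, were 1 with library totals only, the replicate block or a term for Y-linked transcripts, 7 by DESeq2, 0 in the 5 libraries and 1 to 2 leaving out 1 library. Regulators that rose, 2, were 3 by DESeq2, 1 with RLE, library totals, limma-voom, the replicate block or the Y-linked term, 0 with no filter or in the 5 libraries, and 0 to 2 leaving out 1 library. Those that fell, 1, were 0 with the replicate block and in the 5 libraries, and 0 to 1 leaving out 1 library. Same-numbered libraries showed no sign of being paired, with correlations of -0.228 to -0.0528, and 0 of 4 matched their own number best. With 4 libraries per group this check cannot exclude pairing. Library totals moved the median log2 fold change of all tested genes to -0.13, against -0.02 with TMM. Log2 fold changes turned sign only for keratins that did not pass the test. With library totals Krt5 was -0.0828 and Krt79 -0.0106. With the Y-linked term Krt14 was 0.0209 and Krt6a 0.0943. In the 5 libraries Krt14 was 0.013, Krt6a 0.98, Krt6b 0.89 and Krt79 -0.0746. Leaving out 1 library in turn, Krt5 ranged from -0.0341 to 0.074, Krt14 from -0.0724 to 0.0351, Krt15 from -0.20 to 0.12, Krt6a from -2.23 to 0.86, Krt6b from -5.06 to 1.05, Krt32 from -0.23 to 0.16, Krt25 from -1.11 to 0.0299 and Krt75 from -0.53 to 0.0485. The causes were not tested. A filter of 1 CPM in 4 libraries left Krt12, Krt42, Krt75 and Krt222 out, so it gave no value for them. The difference in keratin share, 0.314 percentage points, stayed between 0.117 and 0.501. Counts under about 70 in a library limit the untested keratins.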

Other observations

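Keratin-associated proteins, which cross-link keratins in the hair shaft, were nearly silent in these cells. Of 53 symbols, 40 had 0 counts in every library and 1 was tested. That gene, Krtap3-2, was at 1.29, 0.982, 1.13 and 1.36 CPM in knockouts, against 0.642, 0.160, 0.154 and 0.321 CPM in controls. These were 30 to 43 counts in knockout libraries and 5 to 23 counts in control libraries. It was named after its values were seen, and it passed the filter on low counts through its knockout values, so no test is given.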
